A study of Mus musculus with 7 samples.

Results

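The exons examined here were the outermost exons of multi-exon genes in mouse cerebral cortex, that is, the exon with the smallest start and the exon with the largest start of every gene that has at least 5 rows in the deposited exon table. This rule took 11866 outermost exons of 5933 genes out of 86425 exon rows in 7498 genes. A strand was found for 5892 of the genes by their symbol, which split their outermost exons into 5892 first exons at the 5′ end and 5892 last exons at the 3′ end. The other 82 outermost exons had no strand and were used by position only. The rule used position and not the measured values. At its threshold, the 524 genes with exactly 5 rows had median smallest-start shares of 18.3% in embryonic and 21.7% in adult cortex, while the 543 genes with 4 rows, just outside, had 19.8% and 20.6%.

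The samples were cerebral cortex of C57BL/6 mice, 4 at embryonic day 17 and 3 from young adults, with no treatment or engineered allele named for either group. Messenger RNA was sequenced, and 18444272 to 23606525 reads fell in genes in each sample. The exon table holds, for every exon and sample, a variance-stabilized form of a whole number. That whole number was the gene's reads divided by the exon's reads, rounded, so a higher deposited value is a smaller share. Shares below are 100 divided by the whole number, in percent of the gene's reads, and reads over a junction may count in more than 1 exon. A whole number of 1 stands for any share above 66.7%, 2 for 40% to 66.7% and 3 for 28.6% to 40%, so large shares are coarse, whereas a whole number of 30 stands for 3.28% to 3.39%. Differences in share were tested with diffSplice in limma, in which an exon is compared with the rest of its gene, with Benjamini-Hochberg adjustment over all 86181 exons tested.

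The first exon of a transcript begins at its promoter and usually carries the 5′ untranslated region. A gene with several promoters therefore has several first exons, and a change of promoter moves reads from one of them to another. The last exon usually carries the stop codon and the 3′ untranslated region up to the site where the poly(A) tail is added, and alternative last exons or cleavage sites change it. Many genes of neurons, myelin-forming cells and the cytoskeleton are known to use both kinds of choice.

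First and last exons differed in build and in reads. Spacing between exon starts placed 4260 first exons, 4271 last exons and 67562 inner exons on exons of the GENCODE M21 annotation, and 92.6% of those first exons opened an annotated transcript and 93.1% of those last exons closed one. Among inner exons of the same genes 9.0% opened and 12.2% closed an annotated transcript. The median first exon was 233 bases long with 67.6% GC, the median last exon 1276 bases with 47.1% GC, and the median inner exon 131 bases with 50.6% GC. The median first exon held 44.8 estimated reads per sample against 451.2 for last exons and 73.5 for inner exons. First exons thus held far fewer reads than last exons, which were also longer, and most last exons sat on the coarse end of the scale.

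To show the sequence around the starts that moved, the 150 bases upstream of the start are printed for 6 of the 8 named first exons whose annotated 5′ end lay within 20 bases of a RefSeq start, and Phldb1 and AU040320 were the other two. The sequences are from RefSeq on GRCm38.p6, run 5′ to 3′ on the gene's strand, and have each CG dinucleotide in capitals. The first 5 belong to exons with a larger share in adult and Smarcd3 to one with a smaller share.
Mog: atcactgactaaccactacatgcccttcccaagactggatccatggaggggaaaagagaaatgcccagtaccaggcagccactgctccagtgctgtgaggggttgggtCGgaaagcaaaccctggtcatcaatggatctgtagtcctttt
Slc15a2: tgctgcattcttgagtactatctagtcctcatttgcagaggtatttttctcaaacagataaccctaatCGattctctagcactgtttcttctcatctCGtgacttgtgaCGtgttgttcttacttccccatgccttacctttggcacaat
Prkag2: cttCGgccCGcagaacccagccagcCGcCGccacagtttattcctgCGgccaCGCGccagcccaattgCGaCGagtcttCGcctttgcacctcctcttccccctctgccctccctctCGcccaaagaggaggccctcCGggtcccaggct
Gabbr1: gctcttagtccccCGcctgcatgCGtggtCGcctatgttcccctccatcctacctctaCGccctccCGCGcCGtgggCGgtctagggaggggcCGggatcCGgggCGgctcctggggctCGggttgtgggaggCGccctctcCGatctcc
Pde4a: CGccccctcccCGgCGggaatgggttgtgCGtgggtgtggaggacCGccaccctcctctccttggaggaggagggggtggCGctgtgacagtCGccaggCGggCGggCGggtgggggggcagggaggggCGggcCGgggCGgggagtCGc
Smarcd3: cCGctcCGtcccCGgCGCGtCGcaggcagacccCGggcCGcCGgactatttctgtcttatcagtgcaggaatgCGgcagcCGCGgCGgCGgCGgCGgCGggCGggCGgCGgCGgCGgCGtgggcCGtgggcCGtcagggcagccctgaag

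These windows lie, in the order printed, at chr17:37023399-37023548, chr16:36784963-36785112, chr5:25100643-25100792, chr17:37045816-37045965, chr9:21165564-21165713 and chr5:24602003-24602152. CG, which reads the same on both strands, occurred 1 time upstream of Mog and 3 times upstream of Slc15a2, against 12, 14, 14 and 25 times upstream of Prkag2, Gabbr1, Pde4a and Smarcd3. Over all 32851 RefSeq windows of the same 150 bases the median was 4 and 85.7% held at least 1. The starts with a larger share in adult therefore lay in windows both poor and rich in CG, and the start with the most CG had a smaller one. A count of CG in a window is a description of its letters.

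Before the results, 1 library needs naming. Adult replicate 2 had the largest first-exon shares of all 7 samples. The median share of the 5892 first exons was 3.45%, 3.23%, 2.86% and 3.03% in embryonic replicates 1 to 4 and 3.70%, 4.35% and 3.12% in adult replicates 1 to 3, so the groups overlapped, with adult replicate 3 among the embryonic samples. In adult replicate 2 the share lay above all 4 embryonic samples in 55.3% of first exons, in adult replicate 1 in 38.9% and in adult replicate 3 in 20.7%. The same figures for inner exons were 20.5%, 25% and 15%. For last exons the median share was 33.3% in every sample. The counts of called first exons by direction, GC class and exon number are therefore also given without adult replicate 2, while the features of called exons and the choice of named exons rest on all 7 samples.

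In the fit on all 7 samples, most of the first exons that differed between embryonic and adult cortex took a larger share in the adult. This lean shrank where the shift shared by all first exons was removed. Of 5892 first exons, 892 passed the test (15.1%), against 4.79% of all exons tested and 4.06% of inner exons of the same genes. The share was larger in adult for 741 of them (12.6%, beside 2.65% of all exons) and smaller for 151 (2.56%, beside 2.15%), and by the deposited difference alone 891 of the 892 had the same direction. Deposited values of the 2 groups did not overlap for 582 of the 892 (9.88% of first exons tested, against 3.42% of all exons), and without adult replicate 2 for 391 (6.64%, against 2.70%). With whole samples centred on their median, 735 first exons had a larger and 148 a smaller share. With each exon class centred on its median in every sample, 379 first exons had a larger and 313 a smaller share. Class centring takes out the shift shared by a class, so a more even split follows from it by construction. Among inner exons 1318 (1.90%) had a larger and 1503 (2.16%) a smaller share in adult, so inner exons leaned slightly the other way. No test of the difference between exon classes was run.

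The count of first exons with a larger share depended on single adult libraries and on the test. Without adult replicate 2 it was 307, with 145 smaller (7.67% of first exons, against 3.14% of all exons and 2.84% of inner exons), and 408 of the 452 exons then called were among the 892. Without adult replicate 3 it was 1214, with 159 smaller (23.3% of first exons, against 6.70% of inner exons). Plain limma, which takes each exon on its own, called 143 larger and 54 smaller (3.34%, against 1.98% of all exons and 1.68% of inner exons). In diffSplice all exons of a gene share a single spread, while first exons varied more between embryonic samples than exons further in. Mean log2 shifts of the embryonic samples ran from -0.11 to 0.14 at the first exon and from -0.06 to 0.02 at the third. The part of this in the percent of first exons called was not tested. The smaller-share group moved less, between 115 and 159 exons over the 7 fits that each leave out 1 sample.

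**Figure D1:**
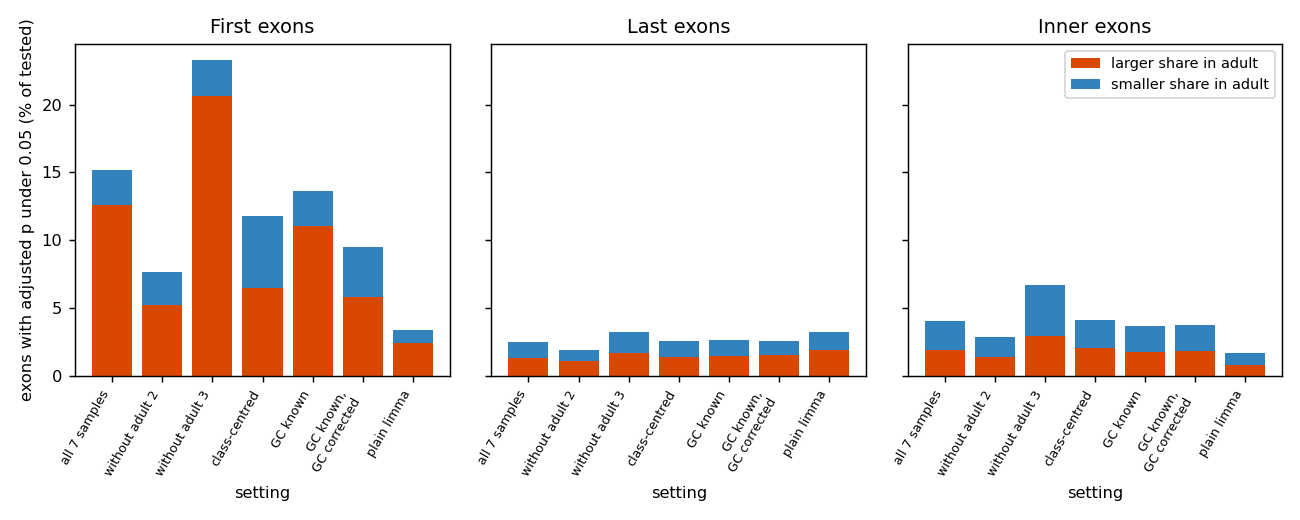
Percent of exons with an adjusted p under 0.05 (y axis), split by direction, for first, last and inner exons under 7 settings (x axis). The bars for first exons run from 3.34% in plain limma to 23.3% without adult replicate 3, while no bar for last exons passes 3.24%.

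The excess of larger shares was strongest at the outermost first exon and nearly gone 2 exons further in. Relative to the embryonic mean, the mean log2 share of the first exon was shifted by 0.24, 0.46 and 0.05 in adult replicates 1 to 3, and by 0.14, 0.03, -0.11 and -0.06 in embryonic replicates 1 to 4. At the second exon the adult shifts were 0.08, 0.11 and -0.00, and at the third 0.02, 0.01 and -0.04. Adult replicates 1 and 2 lay above every embryonic sample at the first 2 exons, and adult replicate 3 lay within their range at the first. At the last exon the adult shifts were 0.07, 0.01 and 0.04, inside or close to the embryonic range of -0.03 to 0.04.

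**Figure D2:**
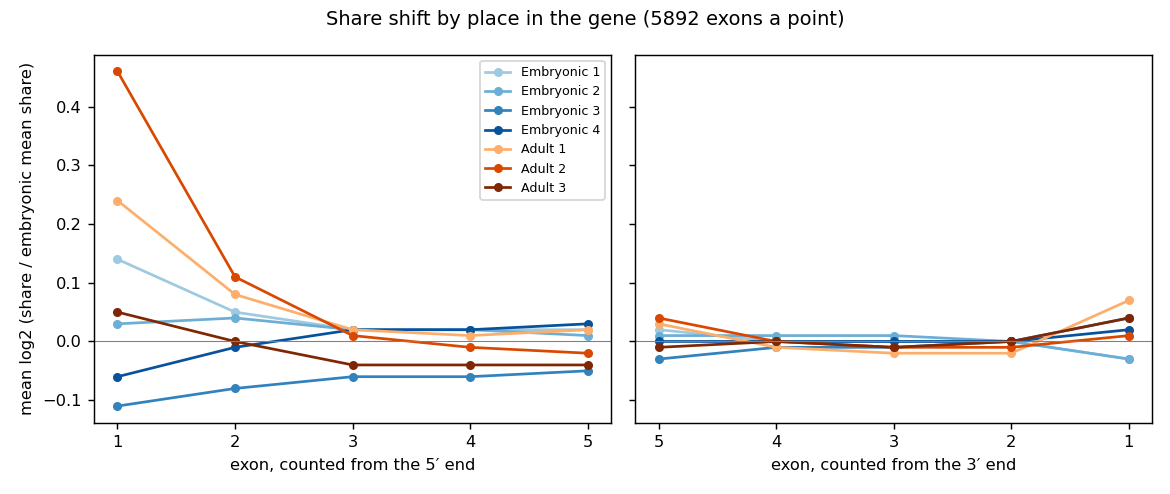
Mean over 5892 genes of the log2 ratio of an exon's share to its embryonic mean (y axis) by the exon's place from the 5′ end and from the 3′ end (x axes), 1 line per sample. Adult replicates 2 and 1 stand highest at the first exon, at 0.46 and 0.24, and all lines come close together by the third.

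The shift of each adult sample was highest in exons with over 70% GC, in inner exons as well as in first exons. First exons with over 70% GC (1663 exons) were shifted by 0.37, 0.71 and 0.12 in adult replicates 1 to 3 on the log2 scale, and the 306 inner exons with over 70% GC by 0.43, 0.62 and 0.14. First exons of 40 to 50% GC (235 exons) were shifted by -0.00, -0.02 and -0.06, and the 50 first exons up to 40% GC by 0.29, -0.10 and -0.23, in another order. The 7472 inner exons up to 40% GC were shifted by 0.13, -0.03 and -0.10, and those of 60 to 70% GC by 0.12, 0.18 and -0.02. Below 70% GC the shifts thus did not rise steadily with GC content in every sample. The embryonic libraries differed in the same way to a lesser degree, from 0.18 in replicate 1 to -0.15 in replicate 3 for first exons over 70% GC. The order of the libraries was thus the same in GC-rich exons at the 5′ end and inside the gene.

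The percent called is given by the same GC classes, with first and inner exons side by side and no test of their difference. Over 70% GC, 20.5% of first and 17.6% of inner exons passed the test. Between 60 and 70% GC the figures were 10.9% and 5.55%, and under 60% GC they were 11.3% and 3.63%. Over 70% GC, 316 first exons had a larger (19.0%) and 25 a smaller share in adult (1.50%), against 13.4% and 4.25% of inner exons. Between 60 and 70% GC, 129 had a larger (8.04%) and 46 a smaller share (2.87%), against 3.70% and 1.85% of inner exons. Under 60% GC the directions were nearly even, with 63 first exons of larger (6.34%) and 49 of smaller share in adult (4.93%), against 1.56% and 2.07% of inner exons. Without adult replicate 2 the first exons called with a larger and a smaller share were 105 and 27 over 70% GC (7.94%, against 12.1% of inner exons), 58 and 41 between 60 and 70% GC (6.17%, against 3.96%) and 40 and 44 under 60% GC (8.46%, against 2.52%). A GC correction subtracted, in each sample, the median deviation of inner exons in the same narrow GC class. Exons beyond the last class with enough inner exons took that class's value. The GC-richest first exons may thus have been corrected by inner exons with less GC. After this correction 246 first exons with a known GC content had a larger and 157 a smaller share (9.46%). The same exons without it gave 469 and 112 (13.6%). Over all exons with a GC content 3.96% passed with and 4.18% without the correction, and over inner exons 3.70% and 3.68%. Without adult replicate 2 the correction left 135 first exons with a larger and 135 with a smaller share (6.34%, against 2.66% of inner exons), where the same exons uncorrected gave 179 and 105 (6.67%, against 2.55%). With that library left out and this GC correction made, the directions were thus equal in number.

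**Figure D3:**
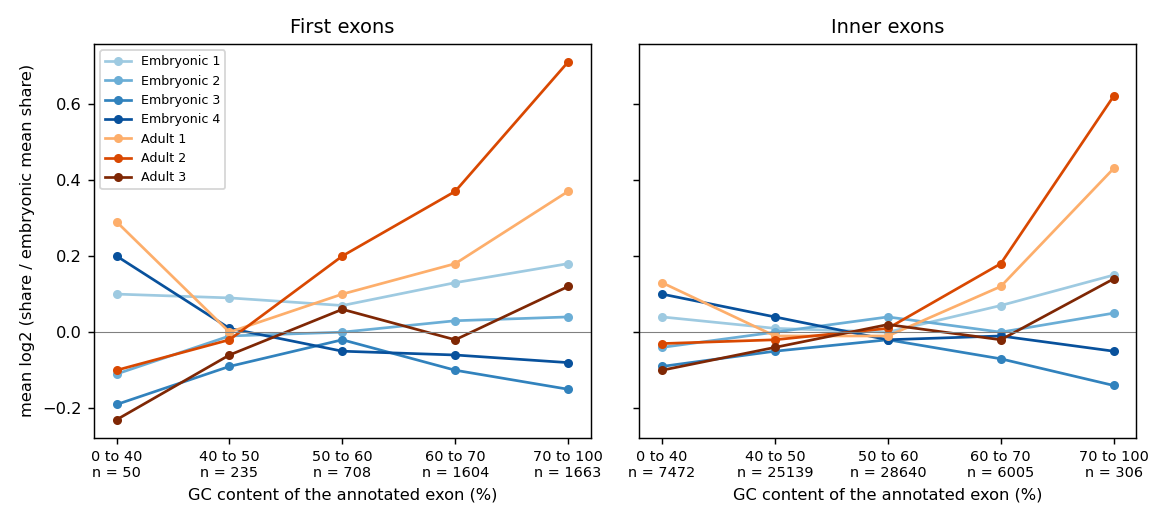
Mean log2 ratio of an exon's share to its embryonic mean (y axis) by GC class of the annotated exon (x axis, with the number of exons), 1 line per sample, for first and inner exons. In both panels adult replicate 2 reaches the highest value over 70% GC, 0.71 for first and 0.62 for inner exons, while all samples lie within 0.1 of 0 at 40 to 50% GC.

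Called and other first exons were also set side by side on features that the choice did not use, as a description. Among genes with matched spacing, an inner exon that opens another annotated transcript was present in 53.2% of the 708 genes whose first exon had a larger share in adult, in 64.9% of the 148 with a smaller share and in 47.2% of the 4862 not called. The median GC content of the outermost first exon was 72.3%, 62.6% and 67.1% in the same order. The median distance from the first exon's start to the next start was 5106 bases in called and 3768 bases in other first exons. The share of first exons called was similar for genes of different exon number, 13.5% for 5 to 9 rows, 16.6% for 10 to 19 and 15.3% for 20 or more, and without adult replicate 2 it was 7.36%, 8.36% and 6.84%.

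Individual first exons are described next, chosen as the 6 with the largest difference of deposited values in each direction among those whose groups did not overlap and that had at least 20 estimated reads in the group with the larger share. The rule could have named 375 first exons with a larger and 86 with a smaller share in adult. The smallest number of exon reads behind any value was 1, even where none may have been counted. Exactly 1 read was recovered for 632 to 771 exon rows in the embryonic samples against 333 to 396 rows with 2 reads, so a value of 1 read may stand for none and its share is an upper limit. This held in all 4 embryonic samples for 50 first exons and in all 3 adult samples for 6.

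Mog encodes myelin oligodendrocyte glycoprotein, a protein of the outer myelin sheath. Its first exon (mm9 chromosome 17, start 37160057, minus strand) was at that limit of 1 read in all 4 embryonic samples, or 0.340%, 0.303%, 0.260% and 0.260%, and took 6.67%, 8.33% and 8.33% of the gene's reads in adult replicates 1 to 3. The groups were far apart (adjusted p = 8.39e-11). The next exon inward, at 37157316, was at 1 read in each embryonic sample as well and took 25% in each adult sample, while the last exon, at 37147685, took 50% in all 7. Embryonic reads of Mog lay elsewhere, with 12.5%, 16.7%, 16.7% and 20% in the inner exon at 37152013, which took 0.490%, 2.08% and 0.103% in adult (adjusted p = 4.56e-16). Summed levels of 6 myelin genes were 59.1 to 65.5 CPM (reads per 1000000 reads in genes) in embryonic and 4020 to 7240 in adult samples, and in such bulk tissue a different mixture of cells and a change within cells cannot be told apart.

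Prkag2 encodes a regulatory subunit of AMP-activated protein kinase, a sensor of cellular energy. Its first exon (mm9 chromosome 5, start 24605829, minus strand) took 0.452%, 0.260%, 0.826% and 0.621% in embryonic replicates 1 to 4 and 7.14%, 7.14% and 6.67% in adult replicates 1 to 3. Every adult sample lay above every embryonic one, with a mean 12.9 times as large (0.540 ± 0.241%, SD, n = 4, against 6.98 ± 0.275%, n = 3, adjusted p = 1.61e-25). The exon held 4 to 13 reads in embryonic and 106 to 120 in adult samples, while the level of the gene was 72.0 ± 2.79 and 69.5 ± 4.32 CPM. An inner exon that opens another transcript, at 24377312, took 9.86% and 7.56% on average, and 3 such inner exons passed the test with a smaller share. In all 3 the groups overlapped. Their deposited differences were 0.57 to 0.96 and their coefficients 2.20 to 2.61, since the test is relative to the rest of the gene. From the outermost first exon the next exon started 71546 bases away, so this was a distant start.

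Tpm1 encodes a tropomyosin, which lies along actin filaments, and is known for alternative promoters. Its outermost first exon (mm9 chromosome 9, start 66896826, minus strand) took 0.877%, 0.260%, 0.649% and 0.515% in embryonic samples and 4.55%, 5.26% and 4.55% in adult samples. The groups did not overlap and the adult mean was 8.31 times the embryonic one (adjusted p = 1.53e-17). The exon held 4 to 12 reads in embryonic and 198 to 251 in adult samples. An inner exon that opens 7 annotated transcripts, at 66891385, took 5.51 ± 0.873% and 5.48 ± 1.04% of the reads and did not pass the test (adjusted p = 0.455). Only the outermost of these 2 annotated starts passed.

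Slc15a2, a peptide transporter, was the member of this group whose call was lost without 1 library. Its first exon took 1.96%, 3.45%, 1.56% and 0.962% in embryonic samples and 7.14%, 9.09% and 5.56% in adult samples. These did not overlap, but the adjusted p of 0.00433 became 0.0779 without adult replicate 2, while the coefficient against the other exons went from -4.78 to -4.32 on the deposited scale. Its first exon held 4 to 19 reads in embryonic samples, and the gene's level was 21.0 ± 6.62 and 20.4 ± 4.11 CPM. The change was not confined to this exon. The next exon inward, at 36782358, opens 1 of the 6 annotated transcripts that hold it. It took 1.50 ± 1.08% in embryonic and 6.19 ± 2.01% in adult samples (adjusted p = 0.00182). Transcripts of choroid plexus, a tissue known to make this transporter, summed to 1.57 to 2.59 CPM in embryonic and 600.0 to 737 in adult samples over 8 markers, and their part in the share was not tested.

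Fundc1, a receptor for mitophagy on the outer mitochondrial membrane, and AU040320 complete this group. For Fundc1 the first exon took 2.86%, 4.17%, 4.17% and 1.89% in embryonic and 10%, 14.3% and 14.3% in adult samples (adjusted p = 5.13e-07). For AU040320 it took 0.877%, 0.752%, 0.855% and 1.19% against 4.17%, 5.26% and 3.03% (adjusted p = 9.4e-20). Neither pair of groups overlapped. In AU040320 the next annotated first exon, 215 bases away, had 2.93 ± 0.369% and 3.49 ± 0.656% and did not pass (adjusted p = 0.272).

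Among first exons with a smaller share in adult, Fgf13 showed opposite changes at 2 exons that open annotated transcripts. Fgf13 encodes a fibroblast growth factor homologous factor that stays inside the cell and acts on sodium channels and microtubules. Its outermost first exon (mm9 chromosome X, start 56820317, minus strand) took 5.26%, 5.56%, 5.26% and 5.88% in embryonic and 1.27%, 1.04% and 0.806% in adult samples, 5.29 times lower on average (adjusted p = 2.06e-14). The exon inward of it, at 56503976, moved the same way, from between 5% and 6.67% to between 0.917% and 1.47%. The inner exon at 56387054, which opens another transcript, took 10%, 10%, 8.33% and 9.09% in embryonic and 25%, 33.3% and 20% in adult samples (adjusted p = 1.12e-12). Of these 2 exons, the one nearer the 3′ end thus had a larger share in the adult. The outermost, 316341 bases before its next exon, had a smaller one. The outermost exon opens 1 of the 4 annotated transcripts that hold it, so its reads may include transcripts that begin elsewhere. Without adult replicate 2 the first exon still passed (adjusted p = 8.72e-11).

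Smarcd3, a subunit of SWI/SNF chromatin remodelling complexes, had a smaller share at its outermost start and a larger one at an inner start. Its first exon took 6.25%, 5.56%, 5.88% and 4.35% in embryonic and 1.43%, 2.13% and 0.568% in adult samples (adjusted p = 3.05e-11). No values overlapped. An inner exon that opens 2 of the 8 annotated transcripts holding it, at mm9 24102625, had a larger share in adult, 6.61 ± 0.957% against 3.86 ± 1.29% (adjusted p = 0.000519). The gene's level was 66.6 ± 3.72 CPM in embryonic and 33.8 ± 2.81 in adult cortex. Unlike in Fgf13, reads of this inner exon did not rise, with 31 to 74 in embryonic and 49 to 54 in adult samples. The first exon held 60 to 88 and 4 to 17 reads. Another inner exon that opens a transcript, at 24104410, did not pass (adjusted p = 0.58).

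The uncharacterized gene 6330407J23Rik had the largest difference of this direction. Its first exon took 10%, 11.1%, 11.1% and 10% against 2.27%, 1.85% and 2.17% of the reads (adjusted p = 1.16e-14), with 526 to 660 reads in embryonic samples. The other 3 members overlapped an annotated exon of the other strand, and reads of the 2 strands could not be told apart. They were Ndufa13, a subunit of respiratory complex I (6.23 ± 0.768% against 1.46 ± 0.281%), Rnd2, a small GTPase of migrating neurons (4.81 ± 0.828% against 1.13 ± 0.397%), and Aldh7a1, an enzyme of lysine breakdown (12.3 ± 1.51% against 3.18 ± 1.01%). In all 3 the groups did not overlap. In Rnd2 the annotated exon at that place opens no transcript.

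Of 51 genes listed for alternative first exons, 40 were in the table with a strand, and 17 of these first exons passed the test (42.5%, beside 15.1% of all first exons). The list was made with earlier results of these data known and is no independent sign. In the adult 11 had a larger share, namely Tpm1, Gabbr1, Pde4a, Nfia, Slc12a5, Auts2, Dpysl3, Dst, Sox5, Kalrn and Dlg2. Another 6 had a smaller share, namely Fgf13, Rbfox1, Dclk1, Gnas, Rtn4 and Tpm3. Of the 17, 15 passed without adult replicate 2. The median difference of deposited values, adult minus embryonic, was -0.37 over the list, -0.44 over all first exons and 0.01 over all exons tested.

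Besides Tpm1 and Fgf13, described above, the listed exons with the largest differences were those of Gabbr1, Pde4a, Rbfox1 and Nfia. Gabbr1, a subunit of the GABA-B receptor, had 0.952%, 1.19%, 0.971% and 0.8% of its reads in its first exon in embryonic and 3.23%, 3.85% and 2.27% in adult samples (adjusted p = 9.34e-15). Pde4a, a phosphodiesterase that breaks down cyclic AMP, had 1.12% to 2.08% in adult samples (adjusted p = 4.2e-06), against 0.116% to 0.394% from 1 to 3 reads in embryonic ones. Both exons have over 70% GC (75.3% and 73.4%), and both passed after the GC correction (adjusted p = 7.59e-12 and 0.000268). Nfia and Rbfox1 differed in another way, since the reads in the exon changed little and those of the gene moved. For Nfia, a transcription factor of glial development, the first exon held 10 to 19 reads in embryonic and 11 to 25 in adult samples, while the gene's level was 187 ± 17.3 and 53.8 ± 4.66 CPM, and the share was 0.310 ± 0.0885% and 1.33 ± 0.510% (adjusted p = 2.9e-05). For Rbfox1, a regulator of splicing in neurons, the exon held 178 to 202 and 143 to 223 reads, the gene 189 ± 4.60 and 338 ± 45.8 CPM, and the share was 4.83 ± 0.304% and 2.51 ± 0.689% (adjusted p = 3.69e-06). In neither gene did the shares of the 2 groups overlap.

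**Figure D4:**
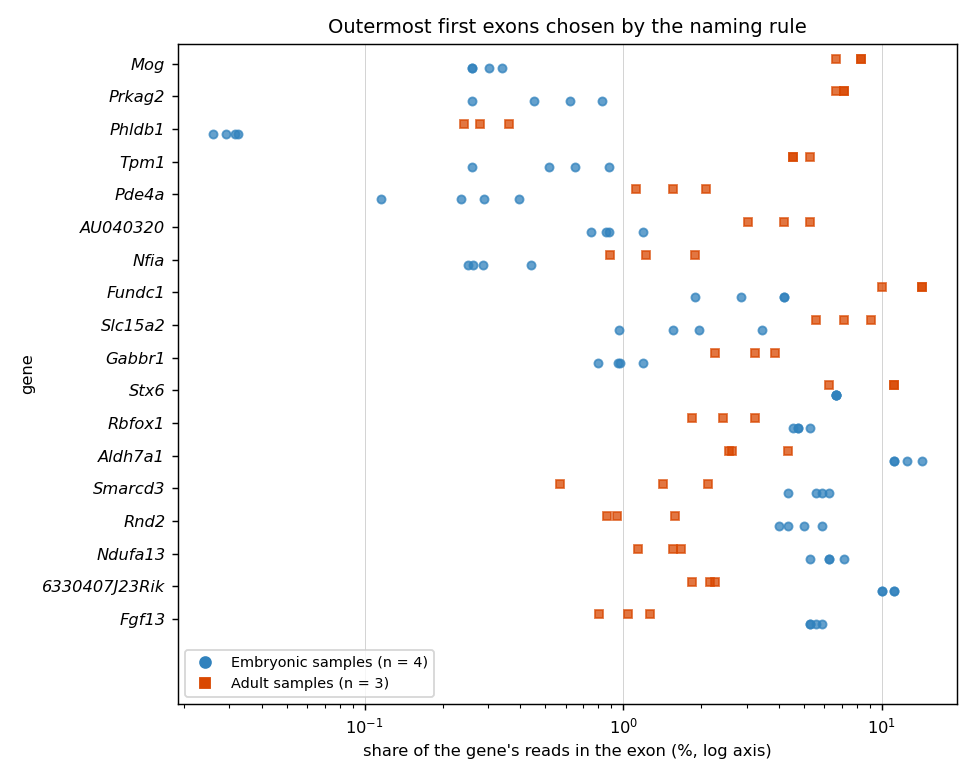
Share of the gene's reads in the outermost first exon (x axis, percent, log axis) for the 18 named first exons (y axis, genes ordered by the ratio of adult to embryonic mean share). Circles are the 4 embryonic and squares the 3 adult samples, and the groups are separate for every gene but Stx6, from Mog (0.291% and 7.78% on average) to Fgf13 (5.49% and 1.04%).

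Few last exons passed the test, with directions close to even. Of 5887 last exons tested, 148 passed (2.51%, beside 4.79% of all exons), 77 with a larger (1.31%) and 71 with a smaller share in adult (1.21%). The deposited values of the groups did not overlap for 111 of the 148 (1.89%, beside 3.42% of all exons). The sign of the deposited difference was the same for 141, and 7 had the other sign, since the test is relative to the rest of the gene. For 2261 last exons the whole number was the same in all 7 samples, and 59.7% had a median whole number of 3 or less, so changes of large shares within a step were not detectable. Where exons with a mean whole number under 4 were left out, 98 of 2137 last exons passed (4.59%). Leaving out any 1 sample gave between 51 and 96 with a larger and between 48 and 94 with a smaller share.

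Called last exons were mostly small ones. Their median share was 10.2% in embryonic and 16.0% in adult samples for those with a larger share, 7.75% and 3.69% for those with a smaller share, and 33.3% in both groups for last exons not called. Their median annotated lengths were 800 and 963 bases, against 1284 bases for those not called. An inner exon that closes another annotated transcript was present in 67.6% and 70.8% of these genes and in 59.5% of the rest. The rule could have named 51 last exons with a larger and 47 with a smaller share.

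Slc7a11, the cystine and glutamate exchanger, had the largest last-exon difference. Its outermost last exon (mm9 chromosome 3, start 50168858, minus strand) took 2.70%, 1.64%, 1.64% and 1.96% of the gene's reads in embryonic samples and a whole number of 2, about 50%, in all 3 adult samples (adjusted p = 1.12e-11). It held 54 to 71 reads in embryonic and 726 to 1020 in adult samples, while the gene's level was 153 ± 10.6 and 73.0 ± 11.9 CPM. The deposited difference was -10.27 and the coefficient against the other exons only -5.09, so the other exons leaned the same way. An inner exon that closes another transcript, at 50219892, went from the limit of 1 read in each embryonic sample to 8 to 24 reads in adult samples. It did not pass (adjusted p = 0.761). A whole number of 2 allows a share of 40% to 66.7%, and the start of the outermost last exon lies 12628 bases from the next. Its place was not matched to an annotated exon.

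Slc44a1, a choline transporter, changed in the same direction with a clear annotated end. The last exon (mm9 chromosome 4, start 53634467, plus strand) took 2.70%, 1.92%, 1.35% and 1.92% in embryonic and 25% in each of the adult samples, 12.7 times as much on average (adjusted p = 1.35e-17). It closes 3 annotated transcripts, is 884 bases long and starts 58454 bases beyond the exon before it. It held 8 to 15 reads in embryonic and 519 to 607 in adult samples. The groups were far apart, and an inner exon that closes another transcript, at 53576013, took 6.21 ± 0.685% and 6.56 ± 0.636% and did not pass (adjusted p = 0.514).

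The other last exons with a larger share in adult had few reads in the embryo or shared their place with the other strand. Zfp652, a zinc finger gene, was at the limit of 1 read in all 4 embryonic samples (0.0295% to 0.0333%) and took 2.38%, 1.64% and 2.63% in adult samples (adjusted p = 9.93e-15). Znrf1, a ubiquitin ligase, took 0.0582% to 0.268% from 3 to 11 reads and then 4% to 5.88% (adjusted p = 3.24e-15). Both overlap an annotated exon of the other strand. Phldb1, which encodes a pleckstrin homology domain protein, had 1 to 4 embryonic reads in its last exon (0.0260% to 0.117%) and 0.725% to 2% in adult samples (adjusted p = 3.98e-17), and the annotated exon there, of 33 bases, closes no transcript. For 2610029G23Rik the last exon took 1.87 ± 0.121% and 7.47 ± 1.40% (adjusted p = 9.05e-07). None of the 4 had overlapping groups.

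Last exons with a smaller share in adult were nearly lost in some genes. For Pop5, a subunit of the RNA-processing enzymes RNase P and RNase MRP, the last exon (mm9 chromosome 5, start 115694398) took 16.7%, 16.7%, 14.3% and 20% in embryonic and 1.64%, 1.16% and 2.63% in adult samples (adjusted p = 3.18e-13). An inner exon that closes 3 annotated transcripts, at 115690648, had whole numbers of 2 in the embryonic samples and 1, 1 and 2 in the adult ones and did not pass (adjusted p = 0.124). For Stx6, a syntaxin of the trans-Golgi network and endosomes, the last exon took 3.12%, 3.33%, 3.70% and 2.86%, then 0.127%, 0.218% and 0.180% from 2 to 4 reads (adjusted p = 2.86e-22). The groups were separate in both genes. In Stx6 the inner exon that closes 4 annotated transcripts, at 157049070, held a whole number of 2 in every sample.

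Spock1, which encodes the proteoglycan testican-1, was similar, with 1.69%, 1.85%, 1.19% and 1.64% in embryonic and 0.0824%, 0.0485% and 0.178% in adult samples (adjusted p = 1.37e-14). The exon held 25 to 40 reads in embryonic and 3 to 10 in adult samples, while the gene's level was 101 ± 8.01 and 276 ± 37 CPM. In Baiap2, which encodes an organizer of actin at synapses and protrusions, the last exon took 5.09 ± 0.429% and 1.34 ± 0.176% (adjusted p = 7.27e-22). Its reads were 55 to 60 and 81 to 108, while the gene's level was 54.1 ± 3.20 and 311 ± 12 CPM, so the reads of this end did not follow those of the gene. The inner end at 119861866 had a whole number of 2 in every sample. A830010M20Rik (11.7 ± 2.20% and 2.34 ± 0.573%) and Dohh, an enzyme of hypusine synthesis (7.32 ± 1.21% and 2.25 ± 0.296%), complete this group, and in both the groups did not overlap.

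Of 46 genes listed for alternative last exons or 3′ ends, 39 were in the table, and 5 of their last exons passed (12.8%, beside 2.51% of all last exons). This list too was made with earlier results known. Klc1, a kinesin light chain, had 1.23%, 1.37%, 0.909% and 1.32% of its reads in the last exon in embryonic and 0.365%, 0.467% and 0.493% in adult samples (adjusted p = 6.32e-07), and no values overlapped. Nfasc, encoding the cell adhesion molecule neurofascin, went from a whole number of 1 in all embryonic to 2 in all adult samples (adjusted p = 0.00343). Ncam1, encoding the neural cell adhesion molecule, went from 2 to 3 (adjusted p = 0.000113). Both are a single step of the scale with 2301 to 11426 reads in the exon, so the size of the change in share is known only within the bounds of the step. Ntrk3, encoding the neurotrophin receptor TrkC, had overlapping groups (5.88% to 9.09% and 3.23% to 6.67%), and its adjusted p of 0.00954 became 0.384 without adult replicate 2 and 0.0625 without embryonic replicate 1.

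**Figure D5:**
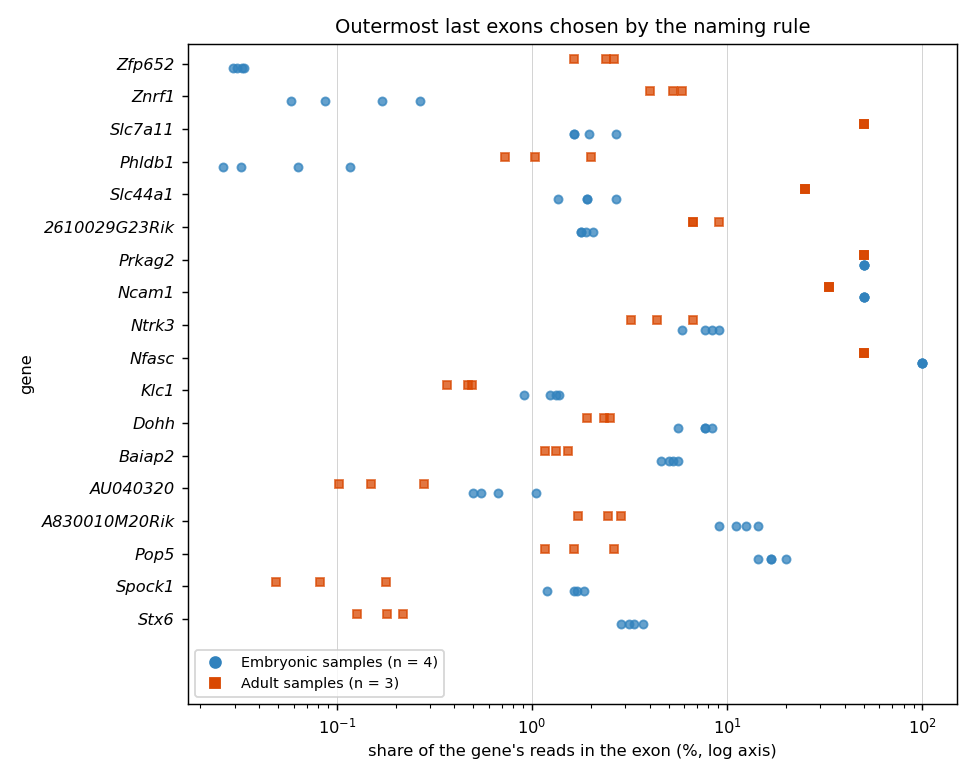
Share of the gene's reads in the outermost last exon (x axis, percent, log axis) for 18 of the 19 named last exons (y axis, genes ordered by the ratio of adult to embryonic mean share). Circles are the 4 embryonic and squares the 3 adult samples. Slc7a11 stands at 1.99% and 50% on average, Stx6 at 3.25% and 0.175%, and only Ntrk3 and Prkag2 have overlapping groups.

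In 43 genes both outermost exons passed the test, or 0.730% of the 5892 genes, against 849 with only the first and 105 with only the last. The last exon was called in 4.82% of genes with a called first exon and in 2.51% of last exons tested. The counts were 22, 430 and 90 without adult replicate 2. The directions were opposite in 29 of the 43, the first larger and the last smaller in adult in 19 and the reverse in 10, while both were larger in 10 and both smaller in 4. The test is relative to the rest of the gene, so a large move at one end pushes the coefficient of the other the opposite way. Opposite directions and calls at both ends are therefore partly tied to the test. The 4 genes with the largest summed difference were Prkag2, Stx6, Phldb1 and AU040320. In Prkag2 the last exon had a whole number of 2 in all 7 samples, so its call (adjusted p = 0.0297) shows a difference from the other exons of the gene and none in its own values, and it was lost without embryonic replicate 1 or 2 or adult replicate 1 or 2 (adjusted p = 0.0928, 0.0846, 0.0708 and 0.157). In Stx6 the first exon took 6.67% in each embryonic sample and 11.1%, 11.1% and 6.25% in adult samples, with overlap (adjusted p = 8.48e-06). In Phldb1 the first exon was at 1 read in every embryonic sample (0.0260% to 0.0323%) and took 0.279%, 0.360% and 0.242% in adult samples (adjusted p = 7.13e-06), so both of its outermost exons were near the limit in the embryo. The change was not confined to these ends. Inner exons at 44535134, 44536103 and 44534093 also had a larger share in adult (adjusted p = 1.37e-13, 3.18e-06 and 8.39e-15). The inner exon at 44512144 had a smaller one (adjusted p = 0.00474). In AU040320 the last exon moved against the first, from 0.692 ± 0.251% to 0.177 ± 0.0910% (adjusted p = 0.0017). That last exon held only 7 to 12 reads in embryonic and 2 to 5 in adult samples.

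Kalrn, which encodes an activator of small GTPases at dendritic spines, was singled out after its values were seen. Its last exon took 50% in all 4 embryonic samples and 8.33%, 7.69% and 7.69% in the adult samples (adjusted p = 1.59e-18). Its first exon took 0.121%, 0.140%, 0.0762% and 0.150%, then 0.444%, 0.405% and 0.617% (adjusted p = 4.48e-15). That first exon held 3 to 8 reads in embryonic and 56 to 105 in adult samples. Both outermost exons thus had separate groups, in opposite directions.

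Markers of other tissues were at unequal levels in the 2 groups. Summed markers of striatum were 97.5 to 105 CPM in embryonic and 757 to 877 in adult samples with all 7 genes higher, and markers of meninges 43.2 to 53.8 and 162 to 240.0 with all 6 higher. Markers of thalamus and hypothalamus were 59.6 to 66.2 and 129 to 205 with 5 of 6 higher, and erythroid markers 1010 to 1540 and 365 to 919 with 3 of 5 lower. Defining markers of cortex were present in every sample, at 2400 to 2600 CPM in embryonic and 1760 to 1890 in adult samples. The marker Ttr of choroid plexus was at 0 in at least 1 embryonic sample. The part of these tissues in the exon shares was not tested.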

How the data were processed

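Cerebral cortex mRNA of 4 embryonic and 3 adult samples was used, in 14 deposited columns. The deposited gene values were variance-stabilized by the authors on a log2-like scale, and their exon values are a deposited score, named in the file headers as 1 over a ratio. The mm9 build and, without roles, TopHat 1.0.13, HTSeq 0.5.3p3, SAMtools 0.1.7a, CASAVA 1.7.1 and Bowtie 0.12.7.0 stand in the submitters' processing notes. No source used here states whether reads were counted by strand. The labels do not say that samples are separate animals, so the sample-to-sample spread behind the p-values may be technical. In diffSplice that spread is pooled over all exons of a gene, so its p-values can be far smaller than those from an exon's own values. For the Prkag2 first exon the adjusted p was 1.61e-25 in diffSplice and 0.000149 in plain limma, and for the Gabbr1 first exon 9.34e-15 and 0.0145.

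Whole numbers behind both tables were recovered from the steps of each column, and at least 99.987% of values lay within 0.1 of a whole number. Rounded gene reads over whole exon reads reached 99.94% to 99.99% of the exon values that could tell. Recovered values describe levels, and tests used the deposited values. limma 3.58.1 under R 4.3.3 ran diffSplice on all 7 samples without covariates, two-sided, after leaving out rows that sat at a column's lowest value in over 3 samples. Strand, exon length and GC content came from GENCODE M21 on GRCm38, through 5437 symbols and 455 older symbols, with exons matched by the spacing of their starts and no coordinate carried over. The naming rule took the 6 largest differences per direction and end, up to 6 from each list and 4 genes with both ends called. Members and lists were chosen with earlier results of these data known. Of the named last exons, 1 is not reported here.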

Additional observations from a re-analysis of the deposited data

How the results depend on the processing

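No named exon changed direction under the settings run on it. First exons with a larger share in adult numbered 741. They numbered 143 in plain limma, 208 in plain limma with centred samples, 379 with each exon class centred, 469 over exons with a GC content, 246 after the GC correction and 480 in genes with at least 10 rows. Without adult replicate 2 they numbered 179 over exons with a GC content and 135 after the GC correction. First exons with a smaller share numbered 151, then 54, 71 and 313 in the first 3 of these and 100 in genes with at least 10 rows. Last exons with a larger share numbered 77, then 47 without whole numbers under 4, 47 in genes with at least 10 rows and 49 with a difference of at least 1. Those with a smaller share numbered 71, then 46 after the GC correction, 43 in genes with at least 10 rows and, without adult replicate 2, 36 over exons with a GC content and 35 after the correction.

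By position, 414 smallest-start and 410 largest-start exons had a larger share, against 115 and 140 in plain limma, and 114 and 113 had a smaller share, against 67 and 70. The mean last-exon share differed by 0.93 percentage points between groups and the median by 0.

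Deviations of same-numbered samples of the 2 groups correlated at 0.0463, 0.0118 and 0.1123. Differently numbered pairs ran from -0.1265 to 0.1149. So few correlations cannot show whether same-numbered samples share more than a number. With replicate number as a block, first exons numbered 635 larger and 156 smaller and last exons 68 and 68. Plain limma with the replicate block gave 8 and 4 first exons and 80 and 39 last exons. Every named exon passed with the block.

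Leaving out 1 sample in turn gave 307 to 1214 first exons with a larger and 115 to 159 with a smaller share, and 51 to 96 and 48 to 94 last exons. The balance of last exons turned without embryonic replicate 1 (53 larger, 66 smaller) and without embryonic replicate 2 (51 and 60). It gave 191 to 662 and 89 to 133 smallest-start exons, 184 to 658 and 86 to 124 largest-start exons, and 34 to 37 of the 37 named exons. The adult minus embryonic median share ranged from 0.274 to 0.885 for first exons, from -0.0906 to 0.0 for inner exons and was 0.0 for last exons. For inner exons it was -0.0302 in all 7 samples, 0.00237 as a mean and 0.0356 in genes with at least 10 rows. In plain limma 33 of the 37 named exons passed. The exceptions were Ntrk3, Stx6 (first), AU040320 (last) and Prkag2 (last), with adjusted p of 0.266, 0.403, 0.0834 and 0.87. The class centring, GC, other-strand and further plain limma settings were chosen after seeing the data. The overlap with other-strand genes in the files' own build was not run. Why the counts moved with the setting was not tested. Few reads limit first exons and coarse steps limit last exons.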
